A study of Bos taurus with 13 samples.

Results

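The miRNAs bta-miR-196a, bta-miR-196b, bta-miR-10a and bta-miR-10b, which are encoded within the HOX gene clusters, were examined in extracellular vesicles (EVs) of bovine follicular fluid. They were taken by name, and all 4 were listed for each of the 5 groups of animals, among 311 miRNAs listed for any group and 262 listed for all. The study asked whether the energy balance of cows after calving goes with the miRNAs carried by EVs, the membrane particles that cells release, in the fluid of large follicles aspirated by ovum pick-up. Postpartum cows were classed by serum metabolites, body weight and feed intake. Transient cows (TCs) were in negative energy balance at weeks 5 and 6 post-calving, represented by 3 pools from 11 cows, and in positive energy balance at weeks 9 and 10, represented by 3 pools from 7 cows. Always negative cows (ANCs) and always positive cows (APCs) were in negative and positive balance, respectively, throughout, and each gave 2 pools from 2 cows, collected at weeks 5 and 6. The heifers, which had not calved and were in positive balance, gave 3 pools from 8 animals. Each pool is 1 library and 1 replicate. The sources used here state neither which animals went into which pool nor whether individual TCs contributed at both times. With 2 cows behind each ANC and APC group, the p-values measure the spread between pools, which may be partly technical.

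HOX genes encode transcription factors that specify position along the body axis, and the miRNAs between them are conserved with the clusters. miR-196 is known to repress HOX mRNAs, HOXB8 being the classic target, while miR-10 lies beside the HOX4 genes. In adult tissues, the expression of these miRNAs often follows the HOX genes around them and thereby the regional origin of a tissue. In the RefSeq annotation of ARS-UCD2.0, bta-miR-196a has a gene near HOXB9 and another between HOXC9 and HOXC10, and the gene of bta-miR-196b lies between HOXA10 and HOXA9. The gene of bta-miR-10a lies within HOXB3, between HOXB5 and HOXB4, and that of bta-miR-10b lies within HOXD4, between HOXD3 and HOXD8. These positions were used for names and neighbours only, since the reads were mapped to another build, UMD3.1. bta-miR-615, the miRNA of HOXC5, was not listed for any group.

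The libraries held 145030 to 421435 reads of listed miRNAs, with a median of 327359, recovered from the steps between the deposited normalized values. Levels are given as CPM, reads scaled to library size, on 1 scale for all 13 libraries set by TMM factors (trimmed mean of M-values), and a miRNA with 3 reads stood at 7.3 to 20.1 CPM. The gonad miRNA bta-miR-202 was present in every library at 2982 to 8014 CPM. Of the blood and epithelial markers, bta-miR-451 was listed at 0 in 1 of the 2 ANC libraries, and bta-miR-449a, a marker of ciliated cells, in 1 of the 2 ANC and 2 of the 3 heifer libraries.

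The 4 miRNAs stood at very different depths. bta-miR-10b made up 0.446 to 1.137% of the reads of a library and ranked between 19 and 42 among the listed miRNAs, and bta-miR-10a made up 0.079 to 0.514% and ranked between 39 and 88. bta-miR-196a, at 0.001 to 0.034%, ranked between 123 and 255, and bta-miR-196b, at 0.001 to 0.029%, between 131 and 233. The miR-196 values therefore rest on 3 to 115 reads per library, and those of miR-10 on 218 to 4320. Reads of the a and b forms, which are near-identical in sequence, could have been divided unevenly by the mapping, which allowed a mismatch, so levels of 1 form against the other are uncertain.

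The APCs had the lowest miR-196 of the 5 groups. bta-miR-196a stood at 24.0 and 10.0 CPM in the 2 APC libraries, from 7 and 3 reads, and at 158.1, 287.1 and 59.3 CPM in the heifers, from 32, 115 and 22 reads. In the TCs, it was at 342.7, 79.7 and 82.4 CPM at weeks 5 and 6 and at 104.6, 78.9 and 55.1 CPM at weeks 9 and 10. The ANCs stood at 63.4 and 107.1 CPM. Both APC libraries were below each of the other 11 libraries, and those of the other groups overlapped. How many of all miRNAs set the APCs apart from all other libraries was not counted. Against single groups, the APC values did not overlap for 15% (TCs at weeks 5 and 6) to 43.1% (ANCs) of the miRNAs tested, in either direction. The TCs at weeks 5 and 6 held 1 library (342.7 CPM) far above the rest of their group, and the heifers were spread from 59.3 to 287.1 CPM.

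bta-miR-196b showed the same order at its lower end. It stood at 24.0 and 20.0 CPM in the APCs, from 7 and 6 reads, and at 108.7, 277.1 and 43.1 CPM in the heifers. The TCs gave 212.5, 56.9 and 41.2 CPM at weeks 5 and 6 and 48.6, 61.0 and 47.3 CPM at weeks 9 and 10. In the ANCs it was at 35.7 and 107.1 CPM. Again the APC libraries lay under all others, and the same heifer library and the same TC library as for bta-miR-196a were the highest.

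**Figure D1:**
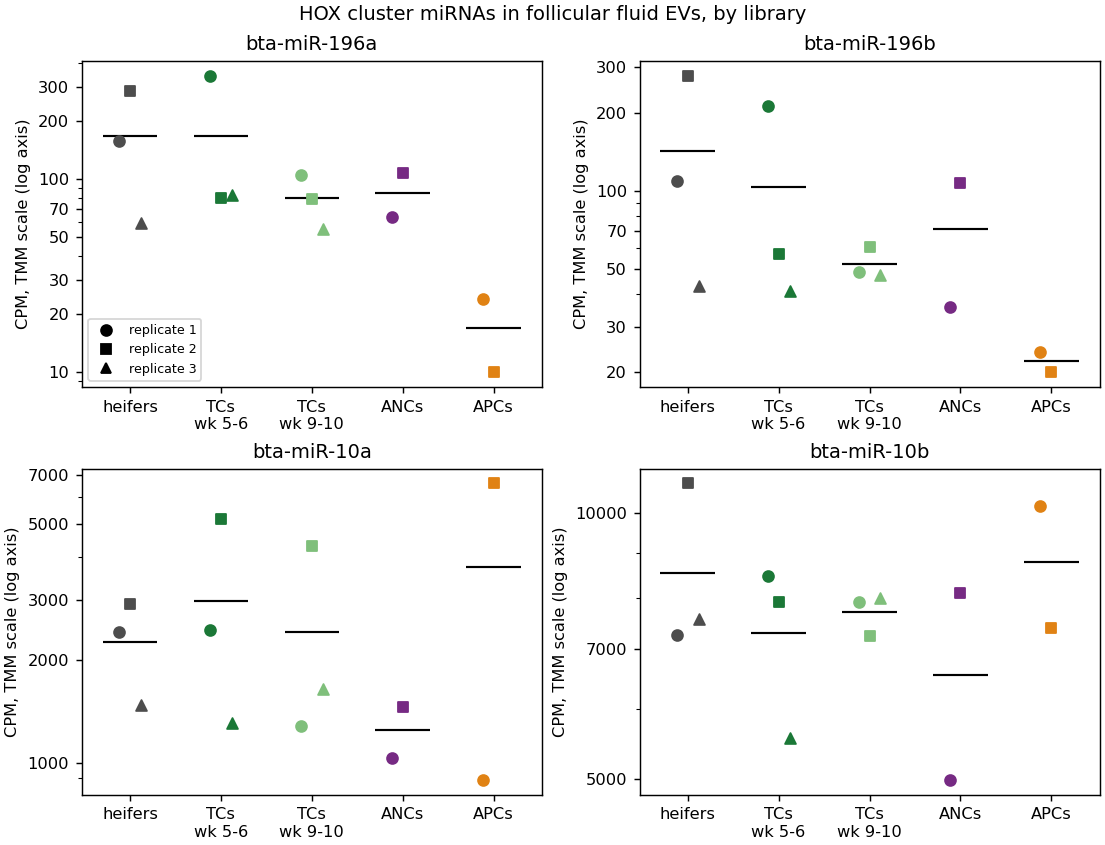
Level of each miRNA in CPM on the TMM scale (log axis) in the 13 libraries, by group, where each symbol is a library, the symbol shape is its replicate number and the bar is the group mean. bta-miR-196a and bta-miR-196b were lowest in both APC libraries (10.0 to 24.0 CPM), bta-miR-10a was highest in replicate 2 of each group, and bta-miR-10b stayed between 4980 and 10790 CPM.

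By group mean, bta-miR-196a followed the order TCs at weeks 5 and 6 (168.3 ± 151 CPM, SD, n = 3), heifers (168.2 ± 114, n = 3), ANCs (85.3 ± 30.9, n = 2), TCs at weeks 9 and 10 (79.5 ± 24.7, n = 3) and APCs (17.0 ± 9.90, n = 2). The neighbours among the first 4 did not differ beyond their spread, and the step down to the APCs was called, as given with the comparisons of APCs. For bta-miR-196b, the order was heifers (143.0 ± 121 CPM, SD, n = 3), TCs at weeks 5 and 6 (103.5 ± 94.7, n = 3), ANCs (71.4 ± 50.5, n = 2), TCs at weeks 9 and 10 (52.3 ± 7.55, n = 3) and APCs (22.0 ± 2.81, n = 2). The neighbours among the first 4 overlapped. The APCs (20.0 and 24.0 CPM) lay below the TCs at weeks 9 and 10 (47.3 to 61.0 CPM) without overlap, a difference that was not called. Values did not overlap for 29.1% of all miRNAs tested in that comparison. When reads were scaled to library totals in place of TMM, the APCs remained last for both, and the heifers exchanged places with the TCs at weeks 5 and 6 for bta-miR-196a.

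APCs were compared with heifers to ask how postpartum cows in lasting positive balance differ from animals that are not lactating, with a fit (limma on log2(CPM + 5)) across all miRNAs that passed a filter on low counts. Differential expression (DE) was called where 3 limits were met together, namely a log2 fold change of 1 or more in size, p below 0.05 and adjusted p not above 0.25. Here 2 of the 4 miRNAs were called, both lower in APCs, beside 12.9% of the 224 miRNAs tested called in either direction and 3.12% called lower. The log2 fold changes were -2.65 and -1.96 for bta-miR-196a and bta-miR-196b and 0.31 and 0.20 for bta-miR-10a and bta-miR-10b. Their median, -0.88 beside 0.03 for all miRNAs tested, lies between these pairs and describes neither.

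bta-miR-196a was downregulated in APCs against heifers by 6.28-fold (log2 fold change -2.65 ± 0.69 SE, 95% interval -4.29 to -1.01, limma, adjusted p = 0.0793). The fold change of bta-miR-196b was 3.88 (log2 fold change -1.96 ± 0.72 SE, 95% interval -3.67 to -0.24, limma, adjusted p = 0.23). The values of APCs and heifers did not overlap for either miRNA, as for 36.6% of all miRNAs tested, and the exact two-sided permutation test gave p = 0.2 for each, where 0.1 is the smallest possible with 2 libraries against 3. Neither miRNA reached 10 reads in an APC library, and each passed the filter on low counts through the heifers, where it is high, so that a miRNA with such a pattern had to differ to be tested. In bulk EV preparations, fewer cells of a type and less RNA per cell cannot be told apart.

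These calls depended on single pools. Without heifer replicate 1, bta-miR-196a stood at -2.58 with an adjusted p of 0.279 in limma and was no longer called. bta-miR-196b lost its call without either APC library (-2.11 and -1.83) and without heifer replicate 1 or 2 (-1.98 and -1.31). The direction remained in each of these. Over all miRNAs, limma called 3 of 228 without heifer replicate 1 and 21 of 220 without heifer replicate 2, against 29 of 224 with all libraries. Omission of either APC replicate left a lone APC library, and the calls over all miRNAs did not fall there. edgeR and DESeq2 on the recovered reads each called the same 2 members.

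The levels of the marker lists in the same comparison are given beside these calls, and their part in the result was not tested. The summed leukocyte markers (5 miRNAs) stood at 2127 to 3938 CPM in APCs and 4858 to 6062 CPM in heifers, with 0 of 5 called by limma, and the liver miRNA bta-miR-122 at 631 to 5858 and 5369 to 17620 CPM, not called. The epithelial markers (9 of 10 listed) ranged from 6296 to 31320 CPM in APCs and from 17330 to 27150 CPM in heifers, where limma called 2 lower (bta-miR-205 and bta-miR-184) and 0 higher. The red cell markers, bta-miR-451 and bta-miR-486, summed to 2137 to 8934 CPM in APCs and 1717 to 3958 in heifers, the 2 listed ciliated cell markers to 65.2 to 1176 and 42.4 to 593, and the 8 listed granulosa cell miRNAs to 73010 to 193700 and 92090 to 137200, with none called. bta-miR-202 was at 2982 to 5277 CPM in APCs and 3410 to 6364 in heifers.

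Against the TCs, the APCs also had the lower values of both miR-196 members. The comparisons of APCs share the 2 APC libraries, so their results are not independent of each other. Against TCs at weeks 9 and 10, when these too were in positive balance, 1 of the 4 miRNAs was called, beside 10.1% of 227 miRNAs tested. bta-miR-196a was downregulated by 3.70-fold in APCs (log2 fold change -1.89 ± 0.54 SE, 95% interval -3.18 to -0.59, limma, adjusted p = 0.144, exact permutation p = 0.1, the smallest possible). bta-miR-196b had a log2 fold change of -1.0 ± 0.43 SE (95% interval -2.04 to 0.05, limma, adjusted p = 0.476) and was not called. Both were without overlap between the groups, as were 29.1% of all miRNAs tested. In each comparison of APCs with cows, as with the heifers, the miR-196 members tested passed the filter on low counts through the other group. The APCs held 7 and 3 reads of bta-miR-196a and 7 and 6 reads of bta-miR-196b. The call of bta-miR-196a was lost without TC replicate 1 (-1.70), TC replicate 3 (-2.13) or APC replicate 2 (-1.39). Over all miRNAs, limma called 21 of 219 without TC replicate 1 and 0 of 219 without TC replicate 3, against 23 of 227 with all libraries. The summed reads of both miR-196 members were also called (-1.64, limma, adjusted p = 0.148).

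Against TCs at weeks 5 and 6, which were in negative balance, limma called 0 of the 4, as it called 0 of the 226 miRNAs tested (6 at an unadjusted p under 0.05, 0 by edgeR and 1 by DESeq2). bta-miR-196a had a log2 fold change of -2.63 ± 0.77 SE (95% interval -4.47 to -0.79), the smallest unadjusted p of the 226 (0.0121, limma) and an adjusted p of 0.993. It was the miRNA that DESeq2 called (log2 fold change -3.30, adjusted p = 0.166). bta-miR-196b had a log2 fold change of -1.60 ± 0.74 SE (95% interval -3.37 to 0.18, limma, adjusted p = 0.993). The APC values of both lay below all TC values, as 15% of all miRNAs tested did not overlap.

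ANCs and APCs, the 2 groups of cows with a lasting energy status, were sampled in the same weeks. limma called 0 of the 3 members tested, as it called 0 of 211 miRNAs (19 at an unadjusted p under 0.05, 0 by edgeR and 4 by DESeq2, with no member among the 4). bta-miR-196a was 4.21-fold higher in ANCs by estimate (log2 fold change 2.07 ± 0.61 SE, 95% interval 0.51 to 3.64, limma, adjusted p = 0.552) and did not pass the adjusted threshold. bta-miR-196b, at 67.2 ± 47.9 CPM in ANCs and 20.2 ± 3.43 CPM in APCs (SD, n = 2 each, scaled within this pair), fell under the filter and was not tested. The values of both did not overlap, as for 43.1% of miRNAs, and a permutation test of 2 libraries against 2 cannot go below 0.333. When APC replicate 1 was left out, which left a lone APC library, the estimate of bta-miR-196a was 2.58.

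The counting error alone bears on these low values. Over pooled reads, bta-miR-196a was 10.3 times as high in heifers as in APCs (exact 95% interval 5.44 to 21.8), 9.61 times in TCs at weeks 5 and 6 (5.08 to 20.4), 4.74 times in TCs at weeks 9 and 10 (2.46 to 10.2) and 4.71 times in ANCs (2.26 to 10.7). For bta-miR-196b, the corresponding ratios were 6.95 (3.94 to 13.4), 4.57 (2.55 to 8.90), 2.33 (1.26 to 4.66) and 2.83 (1.39 to 6.02). All of these intervals lay above 1, but they cover counting error only and not the spread between pools.

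**Figure D2:**
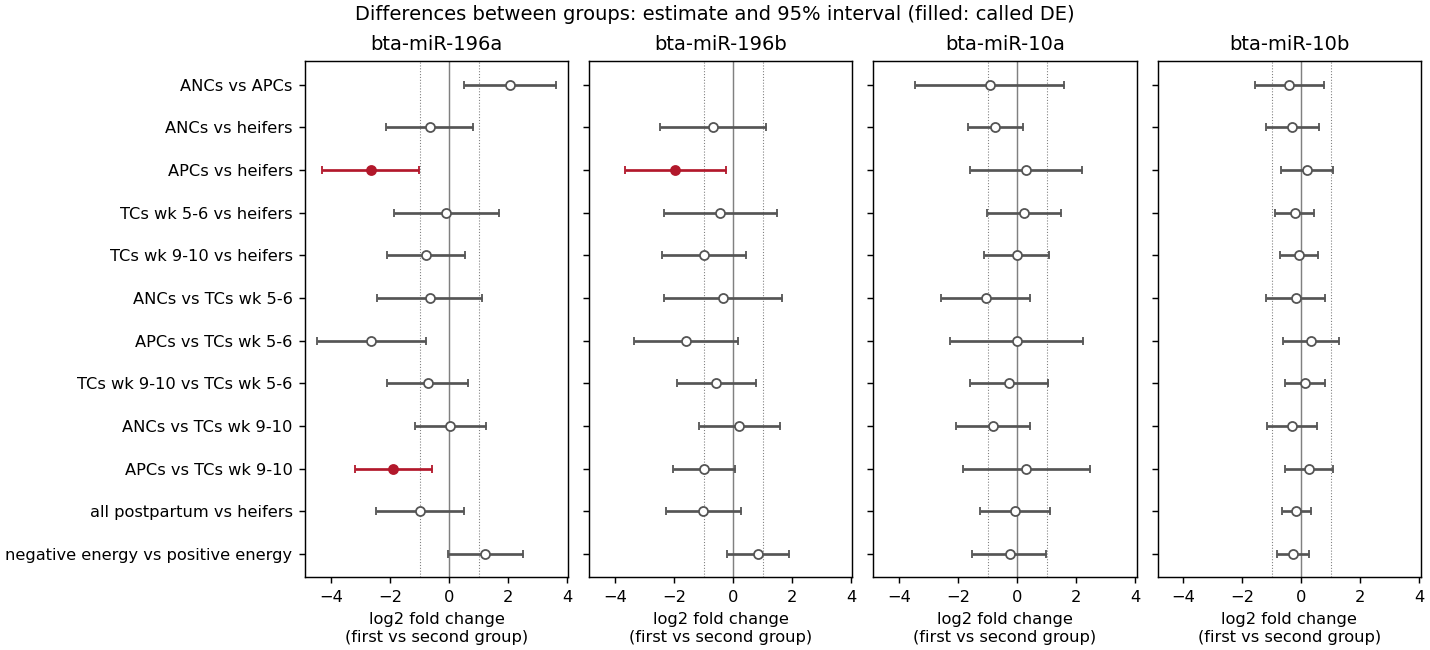
Log2 fold change of each miRNA in the 12 comparisons, with its 95% interval from limma, where filled points passed the DE thresholds and dotted lines mark -1 and 1. The 3 calls are bta-miR-196a in APCs against heifers and against TCs at weeks 9 and 10, and bta-miR-196b in APCs against heifers; the intervals of bta-miR-10a and bta-miR-10b all crossed 0, and bta-miR-196b was not tested for ANCs against APCs.

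The groups other than APCs overlapped in both miR-196 members. In ANCs against heifers, where 18.8% of 218 miRNAs were called, limma called 0 of the 4 members (0 at an unadjusted p under 0.05, and 0 by edgeR or DESeq2), and the log2 fold changes of bta-miR-196a and bta-miR-196b were -0.65 ± 0.64 and -0.69 ± 0.78 SE (95% intervals -2.12 to 0.83 and -2.49 to 1.10). In TCs at weeks 5 and 6 against heifers, where 6.61% were called, they were -0.09 ± 0.75 and -0.44 ± 0.81 (-1.86 to 1.68 and -2.36 to 1.47), and no member was called by limma, edgeR or DESeq2. This fit left out the replicate numbers, and with these as a block limma called 29 of 227 miRNAs and again no member. TCs at weeks 9 and 10 gave -0.78 ± 0.57 and -0.98 ± 0.62 against heifers (-2.10 to 0.54 and -2.40 to 0.44), and limma called 0 of 227 miRNAs there (24 at an unadjusted p under 0.05, 0 by edgeR and 14 by DESeq2, with no member among the 14). Each of these intervals included 0 and was more than 2 log2 units wide.

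Within the TCs, the time after calving gave no call. The log2 fold change from weeks 5 and 6 to weeks 9 and 10 was -0.72 ± 0.60 SE for bta-miR-196a (95% interval -2.09 to 0.64, limma, adjusted p = 0.67) and -0.57 ± 0.60 for bta-miR-196b (-1.92 to 0.79, adjusted p = 0.764). limma called 0 of 223 miRNAs there (12 at an unadjusted p under 0.05, 0 by edgeR and 1 by DESeq2). The ANCs differed from the TCs by -0.66 ± 0.74 and -0.35 ± 0.84 SE at weeks 5 and 6 and by 0.05 ± 0.52 and 0.20 ± 0.60 SE at weeks 9 and 10, and limma called 0 of 226 and 0 of 224 miRNAs (17 and 13 at an unadjusted p under 0.05, 0 and 0 by edgeR, 0 and 4 by DESeq2, with no member among them). The order of ANCs and TCs at weeks 9 and 10 for bta-miR-196a turned (-0.14) with the deposited values without common scaling.

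Over all postpartum cows in negative balance (5 libraries) against those in positive balance (5 libraries), bta-miR-196a was at 127 ± 103 and 53.5 ± 37.3 CPM (SD), with overlapping values. The log2 fold change was 1.23 ± 0.58 SE (95% interval -0.04 to 2.5, limma, adjusted p = 0.997, exact permutation p = 0.0952). For bta-miR-196b it was 0.84 ± 0.48 SE (-0.21 to 1.89, limma, adjusted p = 0.997, exact permutation p = 0.135), and limma called 0 of 216 miRNAs (3 at an unadjusted p under 0.05, 0 by edgeR and 1 by DESeq2, none of them a member). The step between negative and positive balance was compared between the stable cows (ANCs and APCs) and the TCs, and the difference of these steps was 1.26 ± 0.93 SE for bta-miR-196a (limma, adjusted p = 0.524) and 0.68 ± 0.95 for bta-miR-196b (limma, adjusted p = 0.749). For all 10 postpartum libraries against the 3 heifer libraries, where 6.44% of 233 miRNAs were called, the log2 fold changes of -0.98 ± 0.70 and -1.01 ± 0.59 SE were not called (limma, exact permutation p = 0.231 and 0.133).

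bta-miR-196a and bta-miR-196b moved together across the 13 libraries. On the log2(CPM + 5) scale, Pearson's r was 0.924 (permutation p = 2e-05, adjusted p = 0.00012 over the 6 pairs of members) and Spearman's rho was 0.874 (permutation p = 0.00016, adjusted p = 0.00096). Without the 2 libraries farthest from the median of bta-miR-196a, r was 0.918, and after subtraction of the group means it was 0.915. By day of RNA measurement, r was 0.963 over the 5 libraries of the first day and 0.954 over the 7 of the second, both given as a description with no test. The reads of bta-miR-196a were higher in 10 of 13 libraries and equal in 2, with ratios from 0.5 in APC replicate 2 to 2.15 and a median of 1.38. How far the mapping exchanged reads between these near-identical forms was not tested.

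For the other pairs of members, neither r nor rho across the 13 libraries passed the test. The other 5 pairs gave r between -0.042 and 0.406, with adjusted permutation p of 0.505 to 0.891, and bta-miR-10a against bta-miR-10b gave r = 0.153 (permutation p = 0.624, adjusted p = 0.748) and rho = 0.005. The r of bta-miR-196a and bta-miR-10a went from -0.042 to 0.462 when the 2 libraries farthest from the median were left out. After subtraction of the group means, r with bta-miR-10b was 0.649 for bta-miR-196a and 0.75 for bta-miR-196b, and that of the other 3 pairs lay between -0.05 and 0.245, given as a description with no test.

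bta-miR-10a varied widely between pools of a group. It stood at 892, from 260 reads, and at 6593 CPM, from 1974 reads, in the 2 APC libraries, which were the lowest and the highest of the series. The heifers gave 2417, 2913 and 1474 CPM and the ANCs 1034 and 1460 CPM. The TCs were at 2447, 5200 and 1312 CPM at weeks 5 and 6 and at 1284, 4314 and 1651 CPM at weeks 9 and 10. All groups overlapped with the APCs, and replicate 2 was the highest library in each of the 5 groups, as it was for 13 of 244 miRNAs (5.33%). This pattern was noticed after the values were seen, and replicates 2 and 3 share the day of RNA measurement where it is stated.

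The within-group SD of bta-miR-10a on the log2 scale was 1.03, which ranked 20 among 244 miRNAs with a median of 0.574. Group means were 3742 ± 4030 CPM (SD, n = 2) in APCs, 2986 ± 2000 (n = 3) in TCs at weeks 5 and 6, 2416 ± 1650 (n = 3) in TCs at weeks 9 and 10, 2268 ± 731 (n = 3) in heifers and 1247 ± 301 (n = 2) in ANCs. Neighbours in this order overlapped, except that the ANCs (1034 and 1460 CPM) lay just below the heifers (1474 to 2913 CPM) on this scale. When scaled within the pair, as in the fit, ANCs and heifers overlapped too (1410 ± 450 and 2370 ± 725 CPM, SD). No neighbours were called. bta-miR-10a was called in 0 of 12 comparisons by limma, with 0 at an unadjusted p under 0.05 and 0 by edgeR or DESeq2. The estimates with the lowest values were those of ANCs against TCs at weeks 5 and 6 (log2 fold change -1.07 ± 0.63 SE, 95% interval -2.57 to 0.43, limma, adjusted p = 0.591) and ANCs against APCs (-0.94 ± 0.97 SE, -3.46 to 1.57, limma, adjusted p = 0.73).

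A single APC pool set the direction of bta-miR-10a. Without APC replicate 1, which left a lone APC library, its log2 fold change in APCs was 1.70 against heifers and 1.70 against TCs at weeks 9 and 10. That of ANCs against APCs was -2.34. Without APC replicate 2, the estimate against heifers was -1.09, and that of ANCs against APCs was 0.45. The 2 APC pools, from a total of 2 cows, therefore did not give 1 level for this miRNA.

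bta-miR-10b was the steadiest member, with a within-group SD of 0.311 on the log2 scale, rank 218 of 244. It was at 10170 and 7398 CPM in APCs, 7260, 10790 and 7571 CPM in heifers and 4984 and 8115 CPM in ANCs. The TCs gave 8468, 7917 and 5562 CPM at weeks 5 and 6 and 7926, 7254 and 8002 CPM at weeks 9 and 10. All groups overlapped, and the highest library was 2.16 times the lowest, against 7.39 times for bta-miR-10a, 13.8 for bta-miR-196b and 34.2 for bta-miR-196a.

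Group means of bta-miR-10b were 8784 ± 1960 CPM (SD, n = 2) in APCs, 8539 ± 1950 (n = 3) in heifers, 7727 ± 411 (n = 3) in TCs at weeks 9 and 10, 7316 ± 1540 (n = 3) in TCs at weeks 5 and 6 and 6549 ± 2210 (n = 2) in ANCs, and all neighbours overlapped. It was called in 0 of 12 comparisons by limma, with 0 at an unadjusted p under 0.05 and 0 by edgeR or DESeq2, and its log2 fold changes ranged from -0.41 to 0.32. The narrowest interval was that of all postpartum cows against heifers (-0.17 ± 0.23 SE, 95% interval -0.67 to 0.32). In APCs against heifers, the direction of bta-miR-10a (0.31) and of bta-miR-10b (0.20) turned to -0.28 and -0.39 with library totals in place of TMM, a scaling that moved the median of all miRNAs from 0.03 to -0.54, so that relative to that median both stayed on the higher side.

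**Figure D3:**
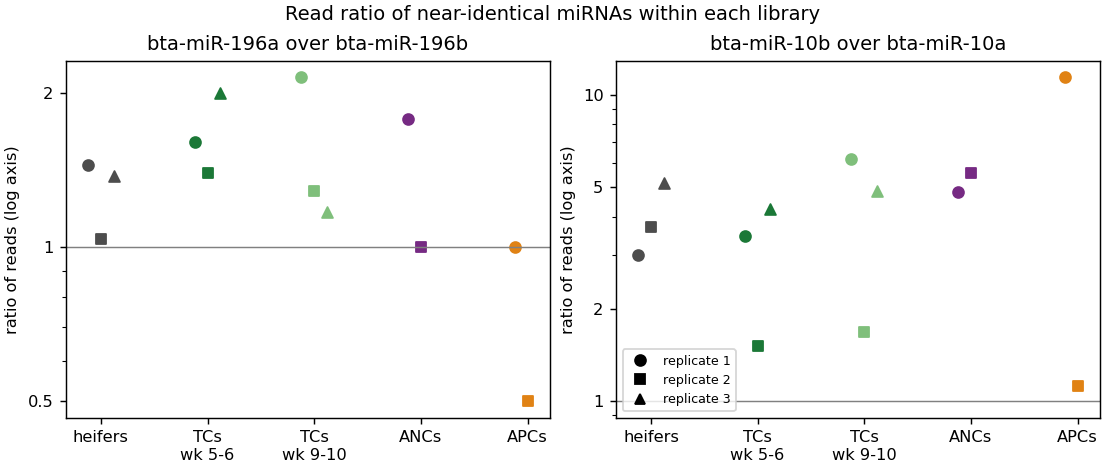
Ratio of reads (log axis) of bta-miR-196a to bta-miR-196b and of bta-miR-10b to bta-miR-10a in each library, by group, with the symbol shape giving the replicate and the line marking equal reads. The miR-10 ratio spanned 1.12 to 11.4, both in APCs, and the miR-196 ratio 0.5 to 2.15.

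Within a library, bta-miR-10b always exceeded bta-miR-10a in reads (13 of 13 libraries, median ratio 4.24). The ratio was lowest in replicate 2 of APCs (1.12), of TCs at weeks 5 and 6 (1.52) and of TCs at weeks 9 and 10 (1.68), and highest in APC replicate 1 (11.4). The ratio needs no scaling between libraries, and its range followed bta-miR-10a, since bta-miR-10b varied little.

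The miRNAs most like bta-miR-10a over the 13 libraries, out of 243 compared, were those of the miR-200 family, which maintains the epithelial state by repressing ZEB transcription factors. bta-miR-200a had rho = 0.978, bta-miR-141 rho = 0.934 and bta-miR-429 rho = 0.918, given as a description across libraries that share depth and scaling. bta-miR-200a ranged from 2240 CPM in APC replicate 1 to 14600 CPM in replicate 2 of TCs at weeks 5 and 6 and stood at 13940 CPM in APC replicate 2. The libraries with high or low bta-miR-10a were thus those with high or low bta-miR-200a. After subtraction of the group means, r of the pair was 0.977.

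The epithelial markers, when summed, also followed bta-miR-10a, and the miR-200 family held most of that sum. In APC replicate 2, bta-miR-200a, bta-miR-200b and bta-miR-200c stood at 13940, 5444 and 4108 CPM, beside 31320 CPM for the summed list. The summed 9 markers gave r = 0.90 and rho = 0.92 with bta-miR-10a, and r = 0.97 in deviations from the group means, against r = 0.33 with bta-miR-10b, 0.07 with bta-miR-196a and 0.30 with bta-miR-196b. Of the 9 markers, 6 (bta-miR-200a, bta-miR-200b, bta-miR-200c, bta-miR-141, bta-miR-429 and bta-miR-205) were, like bta-miR-10a, highest in replicate 2 of all 5 groups. bta-miR-182, bta-miR-183 and bta-miR-184 were not, and bta-miR-184 stood at 219.6 CPM in APC replicate 1 and 53.4 CPM in APC replicate 2. The granulosa cell list gave r = 0.85 with bta-miR-10a, but bta-miR-21-5p, which many other cell types also express, made up 90.2 to 98.9% of its sum, and the other 7 miRNAs of the list summed gave r = -0.76. The leukocyte list gave r = 0.54, and bta-miR-202 gave -0.80. What the part of these cell types is in the level of bta-miR-10a was not tested.

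**Figure D4:**
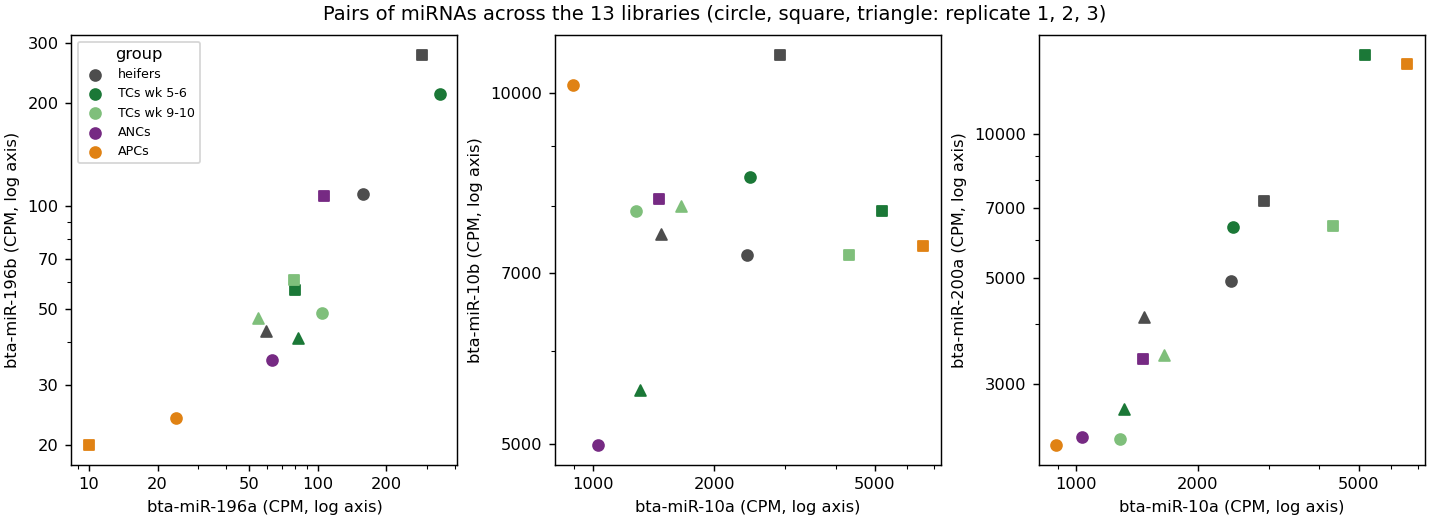
Levels in CPM (log axes) of pairs of miRNAs in the 13 libraries, with colour for the group and symbol shape for the replicate: bta-miR-196a and bta-miR-196b, bta-miR-10a and bta-miR-10b, and bta-miR-10a and bta-miR-200a. The pair on the left and the pair on the right rose together (r = 0.924 and 0.96 on the log2 scale), while bta-miR-10a and bta-miR-10b did not (r = 0.153).

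The miRNAs most like miR-196 were others. For bta-miR-196a, they were bta-miR-196b (rho = 0.874), bta-miR-194 (0.813), a miRNA of intestinal and hepatic epithelium, and bta-miR-214 (0.725), a miRNA of mesenchymal cells. For bta-miR-196b, they were bta-miR-196a (0.874), bta-miR-194 (0.852) and bta-miR-379 (0.813), of the imprinted DLK1-DIO3 region. bta-miR-194 stood at 443 and 701 CPM in the APCs and at 2397, 2499 and 871 CPM in the heifers. For bta-miR-10b, the likeness was lower, with bta-miR-143 (rho = 0.566), abundant in smooth muscle and fibroblasts, bta-miR-199a-3p (0.544), a mesenchymal miRNA, and bta-miR-18a (0.5), of the miR-17-92 cluster.

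The miR-10 family also includes miRNAs outside the HOX clusters with a related seed, bta-miR-99a-5p, bta-miR-99b and bta-miR-100. They summed to 3104 to 6192 CPM over the libraries, and limma called 0 of the 3 in each of the 12 comparisons. The lowest adjusted p was 0.248, for bta-miR-99b in ANCs against heifers (log2 fold change 0.84 ± 0.42 SE, limma). This difference met neither the fold threshold nor the limit on p (unadjusted p = 0.0804, limma). In APCs against heifers, they had log2 fold changes of 0.23 to 0.55, beside 0.31 and 0.20 for bta-miR-10a and bta-miR-10b. The miR-196 members, of another family, stood at -2.65 and -1.96.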

How the data were processed

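Follicular fluid EVs of 13 pools were isolated by ultracentrifugation, and libraries were made with the QIAseq miRNA kit. Per the labels and the study's methods, the authors trimmed adaptors (cutadapt 1.11), mapped reads to UMD3.1 with Bowtie2 2.2.2 allowing a mismatch, assigned them to miRBase miRNAs and applied TMM normalization in edgeR. The deposited values are TMM-normalized CPM, not logged, and in libraries whose deposited values sum to more than CPM can they were recorded as a signal of the same origin. In all libraries, the values were whole multiples of 1 read (3681 of 3681 within 0.1 read), which returned the reads. Groups came from the labels.

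In R 4.3.3, CPM were rebuilt from the recovered reads with TMM factors (edgeR 4.0.16) over the miRNAs listed for all groups compared, since the authors' groups were normalized in different tables. miRNAs passing filterByExpr (minimum count 10, minimum total count 15) were tested with limma 3.58.1 with a trend on log2(CPM + 5), adjusted by Benjamini-Hochberg over all miRNAs tested, in the libraries of the 12 comparisons only. Fold changes are on that scale and understate changes of low miRNAs. Single values were compared with exact permutation tests, and correlations with 100000 permutations. The steps were tested on simulated data. Alternatives were edgeR's quasi-likelihood test and DESeq2 1.42.0 on recovered reads, pseudocounts of 1 and 10, no filter, other scalings, 1 fit of all 13 libraries, a replicate block, the day of RNA measurement and omission of each library. Summing the a and b reads, and levels on library totals, were added after the data were seen. Intervals of counts (exact, 95%) cover counting error only.

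The 4 members and all lists were chosen with earlier results of these data known. Named are the members, the related miR-99 and miR-100 miRNAs, the marker lists (red cells, leukocytes, epithelium, ciliated cells, liver, gonad, granulosa cells) and, for each member, the 3 miRNAs with the highest rho over 13 libraries. Same-numbered pools of TCs at weeks 5 and 6 and heifers deviated together (r of 0.227, 0.375 and 0.388). By a limit of 0.1 in every pair, these numbers were taken to pair the pools, which the labels do not state. Those of the other groups with 3 pools did not (-0.167 to 0.103). Same-numbered pools of APCs and TCs at weeks 9 and 10 gave r of 0.503 and 0.496, but APCs have only 2 pools. Mature sequences were not used here.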

Additional observations from a re-analysis of the deposited data

Results flagged for a closer look

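Single libraries stood apart within larger sets of postpartum pools by Dixon's 95% criterion, which chance meets in about 1 of 20 sets of normally distributed values. It was applied to CPM and not to the log2 values of the fits, so a skewed spread of CPM can meet it more often. For each of the 4 members, the sets were the negative, the positive and all postpartum libraries, which overlap. TC replicate 1 at weeks 5 and 6 stood far above the others for bta-miR-196a (342.7 CPM), both among the 5 libraries in negative energy balance and among the 10 postpartum libraries, and for bta-miR-196b (212.5 CPM) among the 10. APC replicate 1 stood above the other postpartum libraries in positive balance for bta-miR-10b (10170 CPM). The replicates of a single group, 2 or 3, were too few for this criterion.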

How the results depend on the processing

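Of 903 recomputed values, 807 kept direction and call, and 0 called values turned direction. Calls of miR-196 in APCs rest on 3 to 7 reads per APC library. The day of RNA measurement could not be fitted with APCs, since the day of APC replicate 2 is not stated. For uncalled values that turned direction, the cause was not tested.

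In what follows, early TCs are those of weeks 5 and 6 and late TCs those of weeks 9 and 10. With the replicate block, bta-miR-196a was called for ANCs against APCs (2.07, adjusted p = 0.189) and for ANCs against heifers (-1.21, 0.074), bta-miR-196b for ANCs against heifers (-1.30, 0.0672), and bta-miR-196a stood at -0.17 for ANCs against TCs at weeks 9 and 10. These groups share 2 numbers, under the 3 pairs required for pairing, and same-numbered pools deviated with r of 0.22 for ANCs and APCs, 0.019 and 0.05 for ANCs and heifers and 0.4 and 0.513 for ANCs and late TCs. Where stated, replicate 1 was measured on another day than replicates 2 and 3, and with the day as covariate ANCs against heifers gave -0.6 and -0.57 for the miR-196 members, not called. For TCs at weeks 5 and 6 against heifers, where the numbers were taken to pair the pools, the block changed no member's call, and it changed no other. All calls of the block went from 0 to 31 for ANCs against APCs and from 15 to 29 for heifers and early TCs.

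With a pseudocount of 10, bta-miR-196b in APCs against heifers (-1.80) lost its call. For APCs against TCs at weeks 9 and 10, bta-miR-196b was called with library totals (-1.47) and deposited values (-1.32). DESeq2 called bta-miR-196a in APCs against early TCs (-3.30) and gave 0.08 in early TCs against heifers. With deposited values, bta-miR-196a for ANCs against TCs at weeks 9 and 10 was -0.14. Library totals and deposited values gave, in that order, -0.28 and -0.04 for bta-miR-10a and -0.39 and -0.15 for bta-miR-10b in APCs against heifers, and -0.26 and -0.07 for bta-miR-10a and -0.31 and -0.11 for bta-miR-10b in APCs against TCs at weeks 9 and 10. Library totals gave 0.04 for bta-miR-10b in ANCs against TCs at weeks 5 and 6. For bta-miR-10a, edgeR and DESeq2 gave 0.39 and 0.36 in APCs against early TCs, 0.11 and 0.08 in late TCs against heifers (0.02 with deposited values), and 0.21 and 0.25 for postpartum cows against heifers. Summed reads gave 0.37 in APCs against early TCs, -0.04 in early TCs against heifers and 0.03 between the TC times.

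When each library was left out in turn, a lone library being assumed to vary like the others, the bta-miR-196a estimates ranged from -3.20 to -2.14 for APCs against heifers, -2.41 to -1.39 for APCs against TCs at weeks 9 and 10, 1.59 to 2.58 for ANCs against APCs, -1.09 to 0.09 and -0.34 to 0.51 for ANCs against TCs at the early and late weeks, and -0.69 to 0.43 for early TCs against heifers. Those of bta-miR-196b ranged from -2.55 to -1.31 for APCs against heifers, -1.47 to 0.12 for ANCs against heifers, -1.15 to 0.46 and -0.56 to 1.04 for ANCs against TCs at the early and late weeks, -1.08 to 0.21 for early TCs against heifers, -1.02 to 0.06 between the TC times, and -1.65 to -0.35 for postpartum cows against heifers (called without heifer replicate 3). For bta-miR-10a, they ranged from -2.34 to 0.45 for ANCs against APCs, -1.09 to 1.70 for APCs against heifers, -1.47 to 1.43 and -1.09 to 1.70 for APCs against TCs at the early and late weeks, -0.15 to 0.76 and -0.51 to 0.33 for the TCs at these weeks against heifers, -0.76 to 0.26 between the TC times, -0.64 to 0.13 for negative against positive balance, and -0.37 to 0.14 for postpartum cows against heifers. For bta-miR-10b, they were -0.70 to 0.12 for ANCs against heifers, -0.62 to 0.25 and -0.71 to 0.13 for ANCs against TCs at the early and late weeks, -0.02 to 0.54 for APCs against TCs at weeks 9 and 10, -0.07 to 0.47 for APCs against heifers, -0.31 to 0.01 and -0.23 to 0.13 for the TCs against heifers, -0.08 to 0.21 between the TC times, and -0.26 to 0.02 for postpartum cows against heifers.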
